A study of Mus musculus with 8 samples.

Results

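T cells and intraepithelial lymphocytes leave a trace in RNA of intestinal epithelial cells, since many of them sit within the epithelial sheet and come along when it is detached. The T cell and intraepithelial lymphocyte genes described here are 32 listed markers, and 31 of them were measured among the 12393 genes of the arrays. Lck was not analysed here. Each gene was read from its brightest probe set by the mean of 8 arrays.

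The arrays held RNA from intestinal epithelial cells of mice on a mixed C57BL/6, 129Sv and FVB background. All mice, controls included, received tamoxifen by gavage for 5 days, and cells were collected on day 15 counted from the first dose. The 4 groups had 2 arrays each: wild type (WT), mice homozygous for the AA allele of IKKα (IkkαAA/AA, IKKa-AA), mice with tamoxifen-inducible stabilised β-catenin (β-catc.a., bCATca), and mice with both (β-catc.a./IkkαAA/AA, here double mutants, bCATca_IKKa-AA). The series asks how IKKα, a kinase of the NF-κB pathway, bears on the crypt expansion that stabilised β-catenin sets off. Stabilisation is restricted to the epithelium, with a driver not given in the sources used here, while no such restriction is stated for the AA allele. The labels give neither age nor sex of the mice, and do not say whether an array held 1 animal or a pool.

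As background, an intraepithelial lymphocyte of the mouse gut is most often a CD8 T cell that carries the integrin CD103, which binds E-cadherin of enterocytes, and that stores granzymes ready for release. Its T cell receptor signals through the CD3 chains and CD247, which LCK phosphorylates and which ZAP70 and the adaptor LAT read out. Epithelial IL-15, acting through the IL-2 receptor β chain, supports the survival of these cells.

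Promoter windows are shown for 5 genes that illustrate the signalling and killing functions of these cells: the neighbouring CD3 genes, Cd8a and the granzymes A and B. They come from RefSeq (GRCm38.p6), run 5′ to 3′ on the strand of the gene, and cover 250 bases before to 50 bases after the annotated start. Capitals mark 4 motifs searched on both strands. The Runx core was searched as TGTGGT. The E-box was searched as CAGCTG. The ETS core was searched as AGGAAG. The GATA motif was searched as AGATAA. No 2 marked motifs overlap. Cd3g lies at chr9:44980382-44980681 on the minus strand and Cd3d at chr9:44981536-44981835 on the plus strand, so these neighbours point away from each other with 854 bases between the windows. Cd8a lies at chr6:71373177-71373476 (plus), Gzma at chr13:113100932-113101231 (minus) and Gzmb at chr14:56262285-56262584 (minus).
Cd3g: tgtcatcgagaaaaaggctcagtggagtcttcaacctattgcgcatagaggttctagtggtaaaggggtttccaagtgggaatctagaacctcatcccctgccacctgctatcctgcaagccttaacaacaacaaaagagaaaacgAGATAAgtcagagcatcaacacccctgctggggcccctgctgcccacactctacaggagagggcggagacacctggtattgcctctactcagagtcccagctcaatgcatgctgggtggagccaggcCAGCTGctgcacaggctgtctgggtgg
Cd3d: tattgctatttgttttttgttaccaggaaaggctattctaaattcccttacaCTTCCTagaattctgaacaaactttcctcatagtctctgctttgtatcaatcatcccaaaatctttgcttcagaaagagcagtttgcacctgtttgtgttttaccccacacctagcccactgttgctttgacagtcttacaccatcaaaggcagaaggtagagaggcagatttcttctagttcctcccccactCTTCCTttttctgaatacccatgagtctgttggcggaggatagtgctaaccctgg
Cd8a: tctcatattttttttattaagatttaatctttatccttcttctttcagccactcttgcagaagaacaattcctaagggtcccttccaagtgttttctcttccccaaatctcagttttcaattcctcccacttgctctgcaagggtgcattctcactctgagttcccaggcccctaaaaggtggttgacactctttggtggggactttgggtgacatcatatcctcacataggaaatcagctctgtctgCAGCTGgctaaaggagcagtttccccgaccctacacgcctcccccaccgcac
Gzma: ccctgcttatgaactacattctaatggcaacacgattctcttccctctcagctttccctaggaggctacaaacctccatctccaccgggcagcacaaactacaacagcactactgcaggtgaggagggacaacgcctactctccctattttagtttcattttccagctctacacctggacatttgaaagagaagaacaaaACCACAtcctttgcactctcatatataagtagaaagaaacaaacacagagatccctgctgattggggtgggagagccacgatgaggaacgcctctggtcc
Gzmb: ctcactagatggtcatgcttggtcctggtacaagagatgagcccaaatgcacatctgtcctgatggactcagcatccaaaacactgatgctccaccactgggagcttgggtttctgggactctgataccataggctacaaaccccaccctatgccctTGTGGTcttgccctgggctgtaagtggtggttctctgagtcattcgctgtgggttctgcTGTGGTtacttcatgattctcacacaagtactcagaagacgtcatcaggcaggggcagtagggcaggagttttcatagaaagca

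RefSeq windows were available for 19 of the measured genes, 24 windows in all. The Runx core stood in 10 of the 24, against 16.8% of all 32851 windows, and the ETS core in 15, against 35.4%. The E-box stood in 4 (16.3% of all windows) and the GATA motif in 3 (11.2%). Both granzyme windows held the Runx core, and neither CD3 window did. A match describes letters in the window and not a bound site.

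Levels below are log2 intensities. A difference is one of group means on that scale, with its standard error (SE) from limma, and each group has n = 2. Adjusted p-values are those of limma over all 12393 genes, and a gene passed below 0.05. The epithelial label held on all arrays, as Epcam read 12.48 to 12.65 and Vil1, which encodes villin, 11.84 to 12.21. Transcripts of the sex chromosomes set WT replicate 1 apart from the other 7 arrays. Xist, made by the inactive X chromosome, read 9.18 there and 3.56 to 4.03 on the others, and the Y-linked Eif2s3y read 2.02 there and 7.25 to 7.56 on the others. By these readings WT holds 1 female and 1 male array and the other groups male arrays only, so sex is unbalanced in every comparison with WT, and its part in them was not tested. The readings of absent transcripts also give a rough guide to background. Readings up to 4.03 are called near background, where a difference gives no exact fold. The IKKa-AA arrays stood apart from each other in the lymphocyte genes, replicate 1 low and replicate 2 at the WT level. The fit pools the spread of all groups, so this gap enters every p-value. Results are therefore also given from a fit without the IKKa-AA group, an alternative chosen after the gap was seen.

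Lymphocyte genes were lowest in double mutants. Against WT, 10 of the 31 fell and 0 rose, where 0.46% of all genes fell and 0.984% rose. The genes that fell were Cd3g, Cd3d, Cd8a, Ptprc, Cd7, Gzma, Nkg7, Klrd1, Gimap4 and Coro1a. At an unadjusted limma p under 0.05, 25 of the 31 were lower, beside 7.56% of all genes. The median difference over the 31 was -1.46, beside 0.022 over all genes. Both double mutant arrays read below both WT arrays for 26 of the 31 (23.7% of all genes), and below all 6 other arrays for 18 (3.2% of all genes). In RNA of mixed cells, fewer lymphocytes and less of these transcripts per lymphocyte cannot be told apart.

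**Figure D1:**
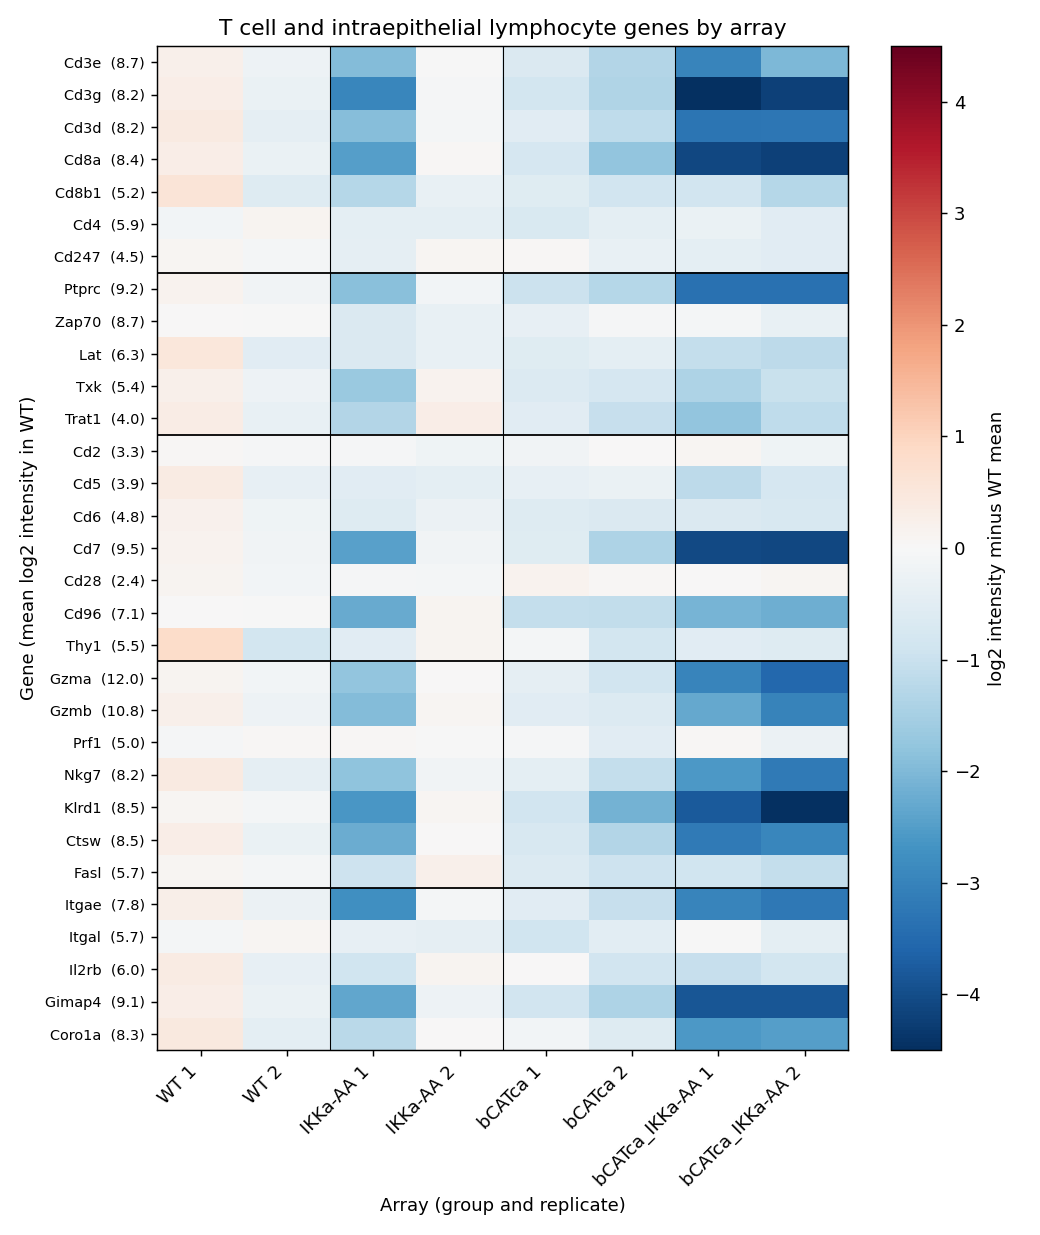
Log2 intensity minus the WT mean for the 31 measured genes (rows, in 5 blocks by role, the WT mean in brackets) on each of the 8 arrays (columns, 2 per group). The double mutant columns are the deepest blue, IKKa-AA replicate 1 is low where IKKa-AA replicate 2 is near 0, and Cd2, Cd28, Prf1 and Cd4 stay pale throughout.

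The CD3 chains carry the signal of the T cell receptor into the cell. Cd3g read 8.50 and 7.87 on the WT arrays, 5.23 and 8.14 on those of IKKa-AA, 7.37 and 6.82 on those of bCATca and 3.39 and 3.999 on the double mutant arrays. The double mutants were near background, and neither of their arrays overlapped another group. Their readings fell below WT (difference -4.49, SE 0.77, adjusted p = 0.0348).

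Cd3d, transcribed from the neighbouring start, read 8.58 and 7.77 (WT), 6.26 and 8.09 (IKKa-AA), 7.68 and 7.05 (bCATca) and 4.88 and 4.91 (double mutants). Both double mutant arrays were below all others, and the gene fell 9.68-fold against WT (difference -3.28, SE 0.53, adjusted p = 0.0297). Cd3e, a further CD3 chain, stood at 8.89 and 8.44 in WT and 5.69 and 6.64 in double mutants. The double mutants were again lowest, but the test was missed (difference -2.50, SE 0.58, adjusted p = 0.0798), and it was passed without the IKKa-AA group (adjusted p = 0.00366). Cd247, the ζ chain, read 4.02 to 4.61 over all arrays (difference -0.48, SE 0.20, adjusted p = 0.282 for double mutants against WT).

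The coreceptors differed from each other. Cd8a, which encodes the CD8 α chain, read 8.65 and 8.09 (WT), 5.88 and 8.43 (IKKa-AA), 7.60 and 6.58 (bCATca) and 4.27 and 4.18 (double mutants). It fell 17.7-fold in double mutants against WT (difference -4.15, SE 0.70, adjusted p = 0.0333), and its second probe set differed by -2.93. Cd8b1, the β chain of conventional CD8 T cells, read 5.83 and 4.67 in WT and 4.40 and 3.97 in double mutants (difference -1.06, SE 0.41, adjusted p = 0.243). Cd4, the coreceptor of helper T cells, read 5.75 and 6.02 (WT), 5.44 and 5.44 (IKKa-AA), 5.20 and 5.44 (bCATca) and 5.59 and 5.38 (double mutants). All readings outside WT lay below those in WT, and the double mutants did not pass against WT (difference -0.40, SE 0.16, adjusted p = 0.261).

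Among genes of signalling close to the receptor, Ptprc, which encodes the leukocyte phosphatase CD45, had the smallest p of the 31. It read 9.39 and 9.08 on the WT arrays, 7.36 and 9.12 on those of IKKa-AA, 8.28 and 7.95 on those of bCATca and 5.89 and 5.86 on the double mutant arrays. WT, bCATca and double mutants did not overlap, while the IKKa-AA arrays lay on either side of bCATca. Double mutants fell 10.2-fold against WT (difference -3.36, SE 0.46, adjusted p = 0.0198). Lat, the adaptor (-1.13, adjusted p = 0.102), and the kinase gene Txk (-1.19, adjusted p = 0.268) did not pass. Trat1, a receptor-associated adaptor (-1.46, adjusted p = 0.185), did not pass either. Trat1 was near background on all arrays but WT replicate 1 (4.30) and IKKa-AA replicate 2 (4.25). Without the IKKa-AA group, Txk (adjusted p = 0.0108) and Trat1 (adjusted p = 0.0249) passed and Lat did not (adjusted p = 0.0576).

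Zap70, the kinase that docks on the CD3 chains, depended on the probe set. The brightest, which stands for the gene here, read 8.08 to 8.73 over all arrays, with the double mutants at 8.65 and 8.39. The dimmer one read 6.32 and 5.98 (WT), 5.21 and 6.38 (IKKa-AA), 6.05 and 5.07 (bCATca) and 4.68 and 4.82 (double mutants), lowest in double mutants. Il2rb, the IL-15 receptor chain, and Fasl, the Fas ligand, also moved more on the probe sets not used here. That of Il2rb was dimmer by the mean of 8 arrays only. In WT it read 6.52 and 6.34, against 6.37 and 5.63 for the one used. Double mutants differed from WT by -0.92 for Il2rb and -0.99 for Fasl on the probe sets used, and by -1.91 and -2.05 on the others.

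Of the accessory receptors, Cd7, a surface protein of T and natural killer cells, was the one that fell. It read 9.70 and 9.38 on the WT arrays, 7.11 and 9.37 on those of IKKa-AA, 9.004 and 8.14 on those of bCATca and 5.47 and 5.44 on the double mutant arrays. Both double mutant arrays lay below every other array, and the fall against WT was 16.9-fold (difference -4.08, SE 0.61, adjusted p = 0.0248). Cd96, an adhesion receptor, read 7.10 and 7.07 (WT), 4.81 and 7.20 (IKKa-AA), 6.02 and 5.98 (bCATca) and 4.98 and 4.88 (double mutants). IKKa-AA replicate 1 was the lowest array there, and the double mutants did not pass against WT (difference -2.15, SE 0.60, adjusted p = 0.123; adjusted p = 0.000136 without the IKKa-AA group). Cd5 (-0.97, adjusted p = 0.102) and Cd6 (-0.69, adjusted p = 0.104), receptors that tune T cell signals, passed in neither fit. Cd5 was near background on all arrays but WT replicate 1 (4.28). Cd2 and Cd28 were near background on all 8 arrays, so their probe sets give no level. Thy1, a T cell surface protein, read 6.33 and 4.65 within WT alone.

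Among the cytotoxic genes, 3 of 7 fell in double mutants against WT (0.46% of all genes). Gzma, granzyme A, read 12.10 and 11.85 on the WT arrays, 10.20 and 11.99 on those of IKKa-AA, 11.56 and 11.11 on those of bCATca and 9.01 and 8.42 on the double mutant arrays. It fell 9.56-fold in double mutants against WT (difference -3.26, SE 0.49, adjusted p = 0.0261) and stayed well above background. Gzmb, granzyme B, read 11.08 and 10.61 (WT), 8.88 and 10.92 (IKKa-AA), 10.35 and 10.23 (bCATca) and 8.55 and 7.83 (double mutants). The double mutant arrays were lowest for both granzymes, though Gzmb missed the test (difference -2.65, SE 0.56, adjusted p = 0.0642; adjusted p = 0.000798 without the IKKa-AA group).

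Klrd1, which encodes the CD94 chain of natural killer receptors, read 8.54 and 8.37 (WT), 5.82 and 8.52 (IKKa-AA), 7.58 and 6.34 (bCATca) and 4.69 and 3.94 (double mutants). It fell in double mutants against WT (difference -4.14, SE 0.76, adjusted p = 0.0442), where replicate 2 was near background. Nkg7, a granule protein, fell 7.38-fold (difference -2.88, SE 0.51, adjusted p = 0.0401). Ctsw, the lymphocyte protease cathepsin W, missed the test (difference -3.05, SE 0.61, adjusted p = 0.0533; adjusted p = 0.00041 without the IKKa-AA group). Prf1, which encodes perforin, read 4.92 and 5.005 in WT and 5.03 and 4.69 in double mutants, so these groups overlapped on the probe set used. The second probe set read 5.12 and 4.90 in WT and 4.67 and 4.20 in double mutants, without overlap (difference -0.58).

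**Figure D2:**
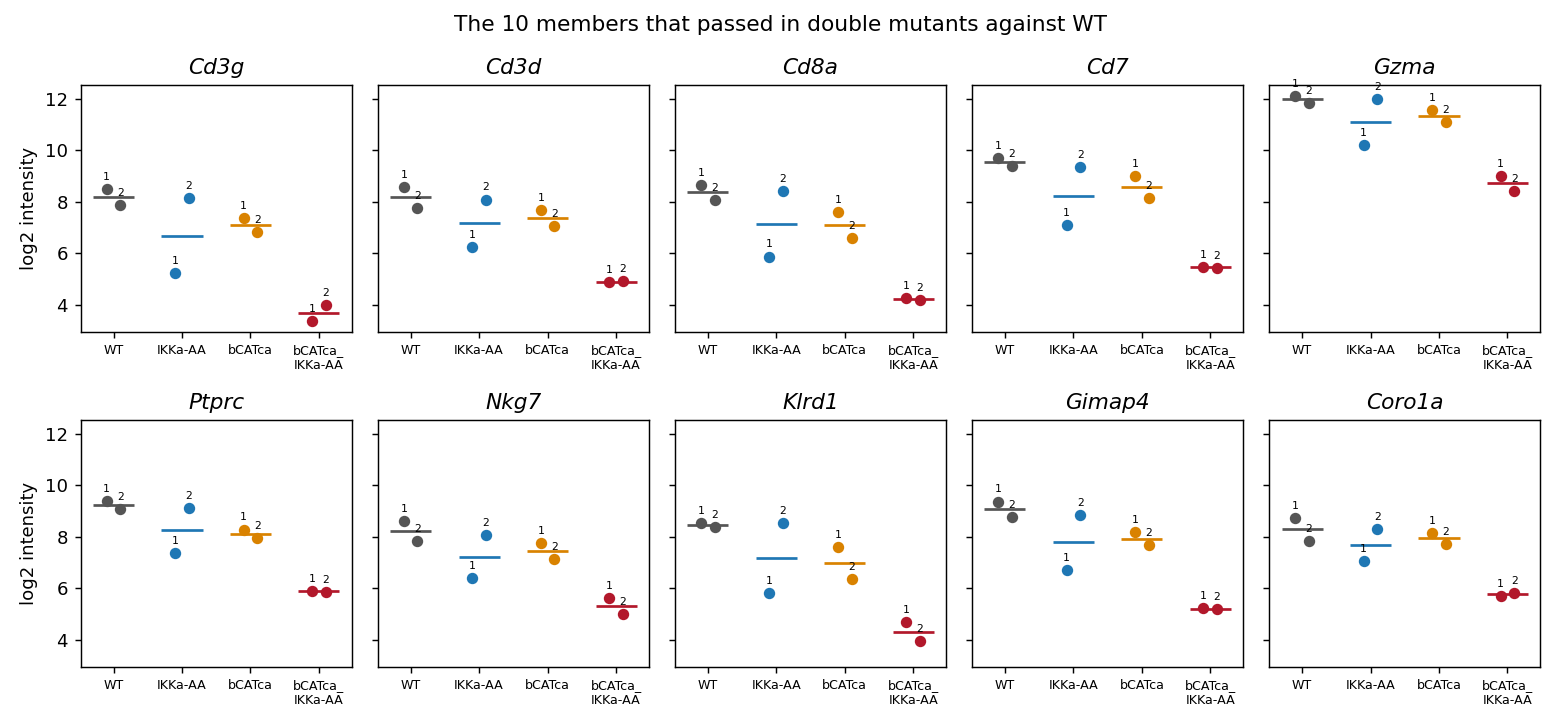
Log2 intensity (y axis) of the 10 genes that passed in double mutants against WT, by group, with replicate numbers beside the points and bars at group means (n = 2). In each panel both double mutant points lie below all others, and IKKa-AA replicate 1 lies below replicate 2.

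Genes of adhesion and the cytoskeleton followed. Gimap4, a GTPase of lymphocytes, read 9.36 and 8.76 on the WT arrays, 6.72 and 8.84 on those of IKKa-AA, 8.18 and 7.67 on those of bCATca and 5.22 and 5.20 on the double mutant arrays. It fell 14.4-fold in double mutants against WT (difference -3.85, SE 0.57, adjusted p = 0.0244). Coro1a, the leukocyte coronin, read 8.72 and 7.85 in WT and 5.71 and 5.82 in double mutants and fell 5.73-fold (difference -2.52, SE 0.41, adjusted p = 0.0297). Its other probe sets differed by -1.69 and, near background on all arrays, by -0.41. With the mean of probe sets Coro1a did not pass, and neither did Cd8a, nor Klrd1 and Nkg7, which have 1 probe set each. Itgae, which encodes the αE chain of CD103, read 8.08 and 7.57 (WT), 5.06 and 7.73 (IKKa-AA), 7.32 and 6.77 (bCATca) and 4.86 and 4.61 (double mutants). The double mutants were lowest, but the test was missed (difference -3.09, SE 0.69, adjusted p = 0.0744; adjusted p = 0.000279 without the IKKa-AA group). Itgal, the α chain of the integrin LFA-1, read 4.79 to 5.77 over all arrays, with 5.62 and 5.77 in WT and 5.67 and 5.26 in double mutants.

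The arrays in the fit set how many genes passed in double mutants against WT. Without the IKKa-AA group 18 of the 31 fell (2.64% of all genes), and as many without either IKKa-AA array, since a lone array adds no spread. The number was 5 without bCATca replicate 1 (0.258% of all genes) and 5 without bCATca replicate 2 (0.258%). It was 0 without WT replicate 1, the female array (0.00807%; median over the 31 -1.12), 0 without WT replicate 2 (0.0403%), and 0 without either double mutant array (0.0161% each). With log2 values under 4 set to 4 it was 0 (0.0888%), with limma's trend and robust options 0 (0.331%), and with the mean of a gene's probe sets 6 (0.29%).

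The AA allele on a background of stabilised β-catenin was read from double mutants against bCATca. With all 8 arrays 0 of the 31 passed, where 0.807% of all genes were lower and 0.403% higher, and 15 had an unadjusted limma p under 0.05 in the lower direction (8.2% of all genes). Closest to the threshold were Coro1a (difference -2.17, SE 0.41, adjusted p = 0.0514), Gzma (difference -2.62, SE 0.49, adjusted p = 0.0516) and Cd7 (difference -3.11, SE 0.61, adjusted p = 0.0561). Ptprc (-2.24, adjusted p = 0.0669), Gimap4 (-2.72, adjusted p = 0.0695), Cd3d (-2.47, adjusted p = 0.0742) and Cd3g (-3.40, adjusted p = 0.0838) came next. Both double mutant arrays lay below both bCATca arrays for 21 of the 31 (24.2% of all genes), and the median difference was -0.69.

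Without the IKKa-AA group, 15 of the 31 fell in double mutants against bCATca (2.19% of all genes). They were Cd3d, Cd3e, Cd3g, Cd7, Cd8a, Cd96, Coro1a, Ctsw, Gimap4, Gzma, Gzmb, Itgae, Klrd1, Nkg7 and Ptprc. Their adjusted p ran from 0.00089 (Ptprc) to 0.0479 (Cd3e). The differences are those of the fit of 8 arrays, since the same 4 arrays enter them, and only the estimate of spread differed. With quantile normalisation of all arrays Gzma passed alone (0.799% of all genes were lower). The bCATca arrays also enter the comparison of bCATca with WT, with the opposite sign.

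**Figure D3:**
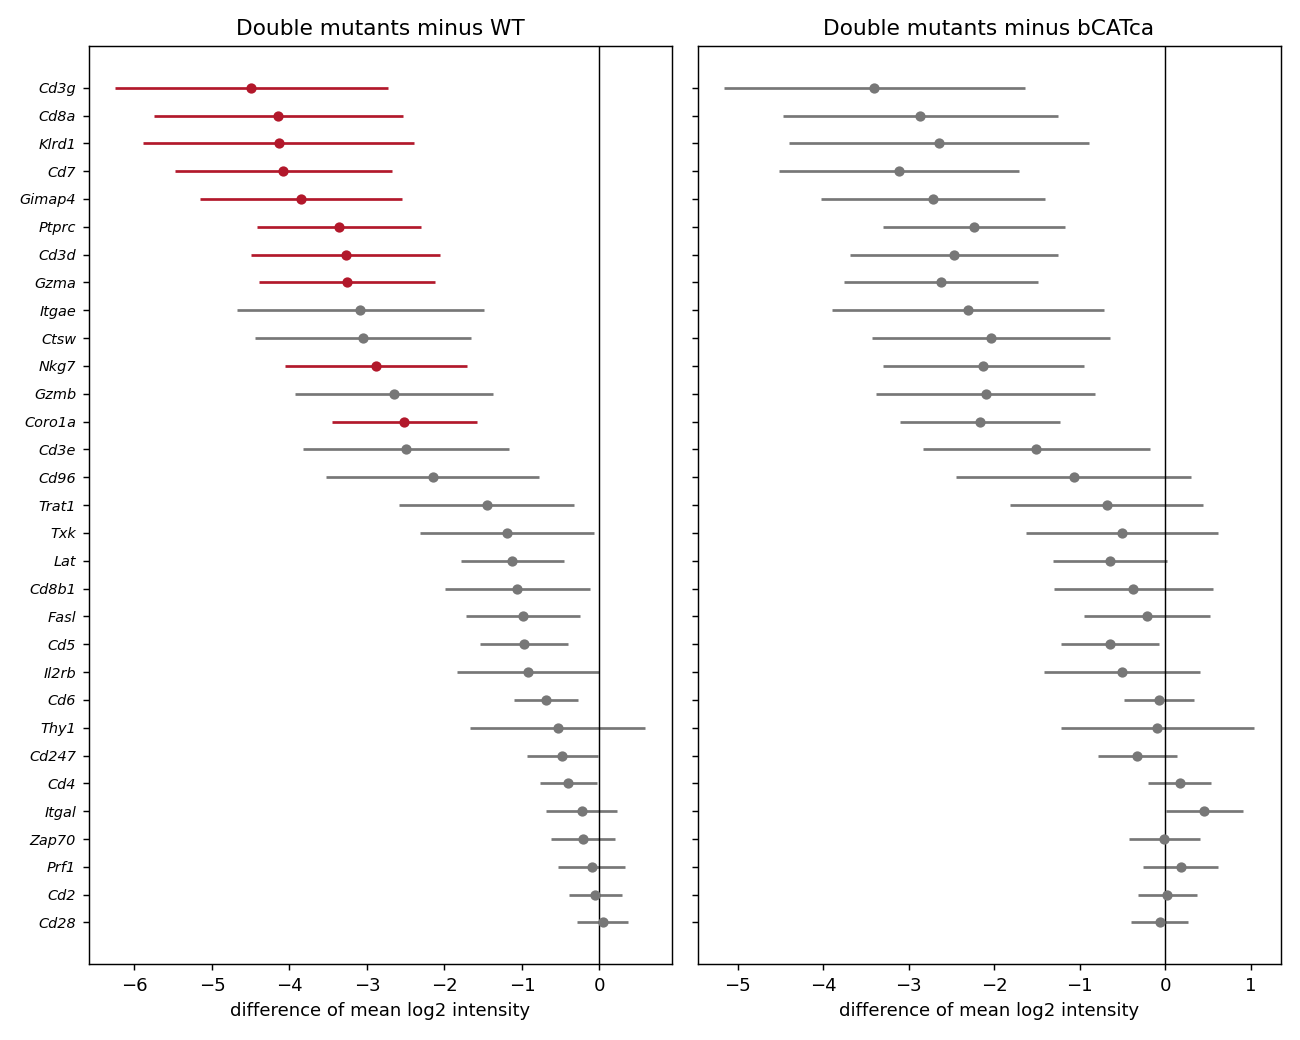
Difference of mean log2 intensity with its 95% interval (limma, 8 arrays) for the 31 genes in double mutants against WT (left) and against bCATca (right), ordered by the left panel. Red marks genes that passed, 10 on the left and 0 on the right, and the 2 panels share the double mutant arrays.

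Bright members were the ones with large differences. Of the 31, 15 had a mean over all arrays above the median of all genes, and their differences between double mutants and bCATca ran from -3.40 to -0.012 with a median of -2.31. For the other 16 the range was -1.07 to 0.46 and the median -0.27. Zap70, on its brightest probe set, had the smallest difference of the 15. Of the other 16, Cd2 and Cd28 read near background on every array, and Lat, Il2rb and Cd4 had WT means of 6.28, 6.00 and 5.89. The part of background in the smaller differences was not tested.

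**Figure D4:**
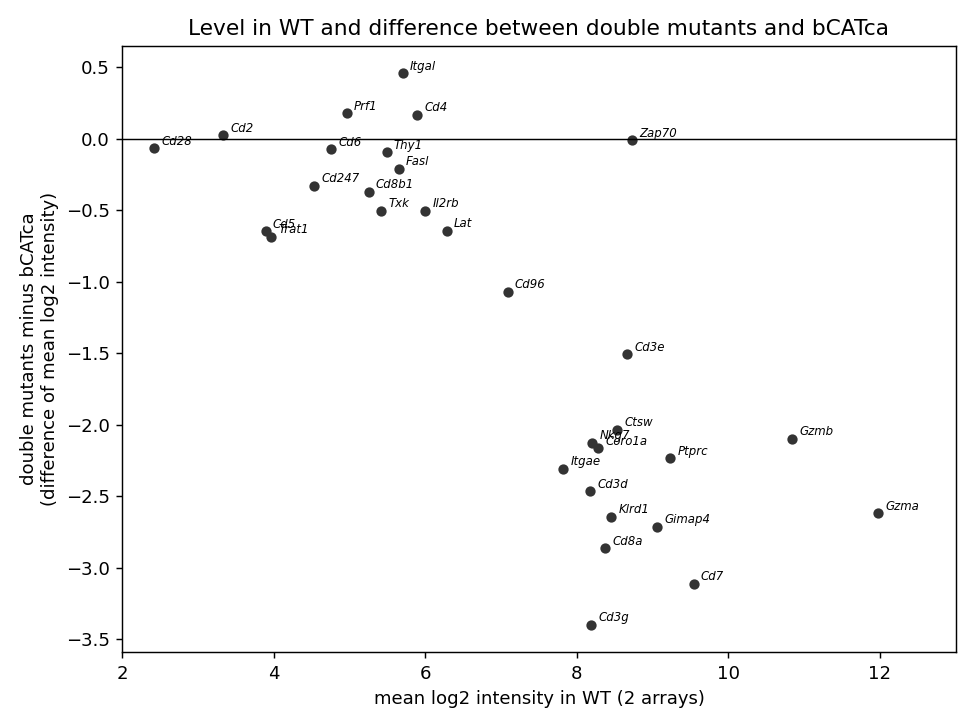
Mean log2 intensity in WT (x axis, 2 arrays) against the difference between double mutants and bCATca (y axis) for the 31 genes. Genes with high readings in WT lie far below 0, apart from Zap70 at -0.012, and genes with low readings lie nearer to 0.

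The effect of stabilised β-catenin alone was read from bCATca against WT, where the median over the 31 was -0.69 (all genes 0.009). Both bCATca arrays read below both WT arrays for 21 of the 31 (29.7% of all genes). Of the 31, 0 passed, where 3.55% of all genes were lower and 5.74% higher, and 5 had an unadjusted limma p under 0.05 in the lower direction (12.5% of all genes): Cd4, Cd6, Itgal, Ptprc (difference -1.12, SE 0.46, adjusted p = 0.15) and Fasl (difference -0.78, SE 0.32, adjusted p = 0.151). Cd4 (difference -0.57, SE 0.16, adjusted p = 0.0624) and Itgal (difference -0.69, SE 0.20, adjusted p = 0.064) came closest to the threshold, and both passed with quantile normalisation (4.18% of all genes were lower). Without the IKKa-AA group 11 of the 31 fell (6.07% of all genes), namely Cd3g, Cd6, Cd7, Cd8a, Cd96, Ctsw, Fasl, Gimap4, Klrd1, Ptprc and Txk. The smallest adjusted p there were those of Cd96 (0.00214) and Ptprc (0.00522).

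The AA allele alone gave no common reading on its 2 arrays. By group means against WT, 30 of the 31 were lower (6296 of all 12393 genes), with a median of -0.74 (all genes -0.005). IKKa-AA replicate 1 lay below replicate 2 for 26 of the 31 (51.4% of all genes), and by more than 1 log2 unit for 19 (2.4% of all genes). The median gap between replicates over the 31 was -1.62 for IKKa-AA, against 0.45 for WT, 0.43 for bCATca and 0.06 for the double mutants. Both IKKa-AA arrays lay below both WT arrays for 6 of the 31 (24.7% of all genes), Cd4, Cd5, Cd6, Cd7, Zap70 and Itgal.

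In IKKa-AA against WT 0 of the 31 passed (0.00807% of all genes were lower), and 3 had an unadjusted limma p under 0.05 in that direction (6.54% of all genes). Errors were wide, as for Cd3g (difference -1.50, SE 0.77, adjusted p = 0.475) and Ptprc (difference -0.99, SE 0.46, adjusted p = 0.441). Without replicate 2, 14 of the 31 fell (1.59% of all genes), and without replicate 1, 0 did (0.00807%). Igha, the immunoglobulin A heavy chain, read 7.43 and 11.70 on these replicates and Jchain, the joining chain of secreted antibodies, 3.84 and 8.68. Their part in the gap was not tested.

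Averaged over both backgrounds, the AA allele gave a median of -0.63. Of the 31, 0 passed (0.0403% of all genes were lower), and 17 had an unadjusted limma p under 0.05 in that direction (6.75% of all genes). Cd7 (-2.21, adjusted p = 0.116), Gzma (-1.75, adjusted p = 0.119), Ptprc (-1.61, adjusted p = 0.12), Gimap4 (-1.998, adjusted p = 0.12) and Coro1a (-1.39, adjusted p = 0.123) came closest. The number that fell was 4 without IKKa-AA replicate 1 (0.0968% of all genes) and 16 without replicate 2 (2.29%).

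Whether the shift with stabilised β-catenin differed with the AA allele was asked by the interaction. Of the 31, 0 passed (0.0484% of all genes were lower and 0.0403% higher), and 2 had an unadjusted limma p under 0.05 in the lower direction (7.84% of all genes), Gzma (difference -1.74, SE 0.70, adjusted p = 0.285) and Coro1a (difference -1.56, SE 0.58, adjusted p = 0.258). Itgal (difference 0.85, SE 0.28) and Cd4 (difference 0.61, SE 0.23) met the same unadjusted threshold in the higher direction. The interaction turned on the IKKa-AA arrays. Without replicate 1, 7 of the 31 passed, all with a negative interaction: Cd3g, Cd7, Cd8a, Gimap4, Gzma, Itgae and Ptprc (0.492% of all genes were lower). Without replicate 2 Cd96 alone passed, in the opposite direction (1.20, where 1.01% of all genes were higher).

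In double mutants against IKKa-AA 0 of the 31 passed (0.00807% of all genes were lower and 0.0484% higher), with a median of -0.94. Unadjusted, 14 had a limma p under 0.05 in the lower direction (2.45% of all genes). Both double mutant arrays read below both IKKa-AA arrays for 19 of the 31 (13.8% of all genes). Without IKKa-AA replicate 1 17 fell (0.912% of all genes), and without replicate 2 0.

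Other genes of the same cells were read from lists. Of 30 further genes of T cell receptor signalling 22 were measured, and 0 passed in double mutants against WT or bCATca, with medians of -0.48 and -0.26. In bCATca against WT 2 of the 22 fell (3.55% of all genes), Prkcq, which encodes a protein kinase C of T cells (-0.85, adjusted p = 0.0327), and Nfatc2, a transcription factor they activate (-0.57, adjusted p = 0.0444), with adjusted p of up to 0.168 and 0.193 under the alternatives. Of 20 measured genes of costimulation and inhibition, 2 fell in double mutants against WT (0.46% of all genes): Cd160, a receptor of intraepithelial and natural killer cells (difference -1.88, SE 0.35, adjusted p = 0.0438), and the lysosomal gene Laptm5 (difference -2.48, SE 0.46, adjusted p = 0.0459). Of 21 measured cytotoxic and natural killer genes 0 passed there, and 9 to 12 of them read near background on each array. Of 20 T cell transcription factors 0 passed, with a median of -0.090.

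Of 20 measured homing and survival genes, 3 fell and 1 rose in double mutants against WT, where 0.46% of all genes fell and 0.984% rose. Ccl5, a chemokine of cytotoxic T cells, read 11.44 and 10.71 (WT), 9.05 and 10.80 (IKKa-AA), 10.74 and 10.28 (bCATca) and 6.85 and 5.89 (double mutants). It was lowest on both double mutant arrays and fell against WT (difference -4.70, SE 0.55, adjusted p = 0.0169) and against bCATca (difference -4.14, SE 0.55, adjusted p = 0.018). Itgb2, the β chain that pairs with Itgal (difference -2.06, SE 0.34, adjusted p = 0.0316), and Cxcr6, a chemokine receptor of tissue T cells (difference -2.01, SE 0.37, adjusted p = 0.0434), also fell against WT. Cd44, an adhesion receptor shared by epithelial and lymphoid cells, rose (difference 1.37, SE 0.20, adjusted p = 0.0244). It was highest on both bCATca arrays, reading 5.95 and 6.28 (WT), 7.19 and 6.76 (IKKa-AA), 8.26 and 8.55 (bCATca) and 7.38 and 7.59 (double mutants). Its difference in bCATca against WT was larger (2.29, SE 0.20). The calls of Ccl5, Cd44, Itgb2, Cxcr6, Cd160 and Laptm5 against WT were each lost under at least 1 alternative, with adjusted p of up to 0.153 for Ccl5 and 0.259 for Laptm5.

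A list of leukocytes at large and lists of other cells were read beside them. All 16 pan-leukocyte genes were lower in double mutants than in WT (5766 of all 12393 genes), with a median of -1.68. Of the 16, 2 passed (0.46% of all genes fell), Itgb2 and Laptm5, the same calls as in the lists above. Cd48, Cd52, Cd53, Cd37, Vav1 and Ptpn6 are also shared with those lists, so this list is not separate from them. The medians against WT were 0.003 for 21 myeloid genes, -0.27 for 14 B and plasma cell genes and 0.094 for 18 epithelial genes. The summed intensity of the 31 lymphocyte genes was 13488 and 10261 on the WT arrays, 3378 and 11530 on those of IKKa-AA, 8147 and 6189 on those of bCATca and 2131 and 1745 on the double mutant arrays. The myeloid sum was 12908 and 12450 in WT and 9402 and 8729 in double mutants, but most of it was Lyz1, a lysozyme that Paneth cells of the epithelium make. Without Lyz1, left out after its values were seen, the sum was 2976 and 3054 in WT and 3723 and 3303 in double mutants, higher in the latter. Cd68 and Adgre1, which mark macrophages, read 3.26 to 4.23 and 3.999 to 4.39 over all arrays. The myeloid list went both ways, with 10 of the 21 lower in double mutants than in WT. Lyz2 read 8.83 and 8.69 in WT and 7.69 and 7.74 in double mutants, and Cd14 6.31 and 6.35 in WT and 7.19 and 7.51 in double mutants. On each array 6 to 10 of the 21 were near background. The epithelial sum, 57467 and 61349 in WT and 61220 and 63610 in double mutants, was no lower there. Within the B and plasma cell list, Igha read 10.33 and 10.72 in WT and 5.50 and 5.64 in double mutants (difference -4.95, SE 1.07, adjusted p = 0.0683; adjusted p = 1.86e-05 without the IKKa-AA group). Jchain read 7.08 and 7.34 in WT and 2.34 and 2.72, near background, in double mutants (difference -4.68, SE 1.21, adjusted p = 0.102; adjusted p = 2.63e-05 without that group). Igha (-5.96, adjusted p = 0.0444) and Ms4a1, which encodes CD20 of B cells (-1.14, adjusted p = 0.0276), fell in double mutants against bCATca, with adjusted p of up to 0.254 and 0.444 under the alternatives. Ms4a1 was near background on all arrays outside bCATca, where it read 4.08 and 4.37.

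**Figure D5:**
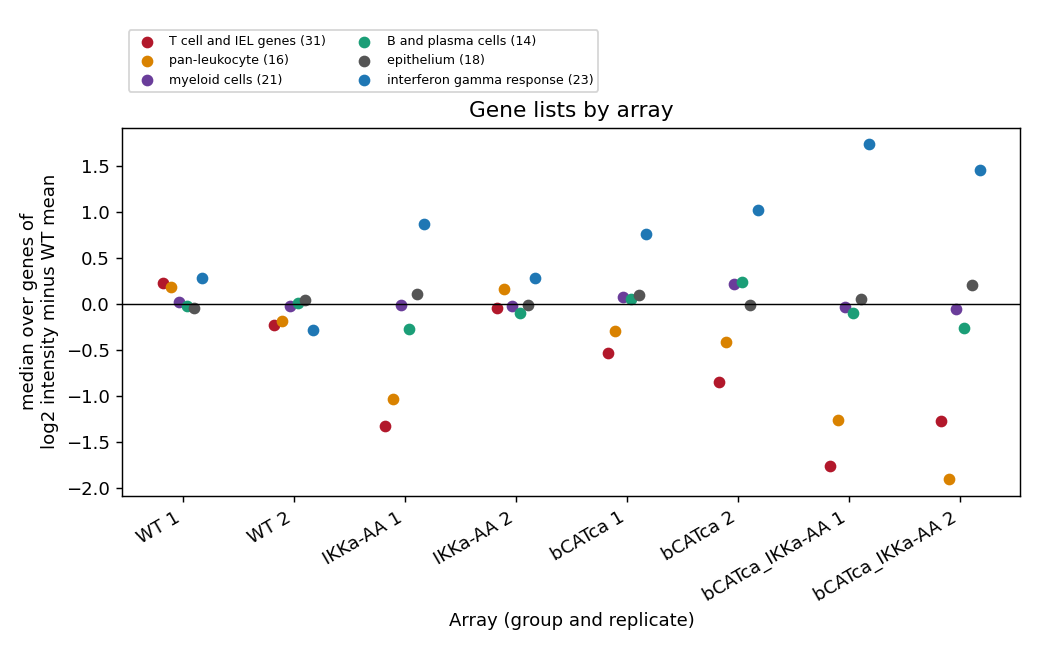
Median over the genes of a list of log2 intensity minus the WT mean (y axis), for 6 lists on each of the 8 arrays. T cell and intraepithelial lymphocyte genes and pan-leukocyte genes are lowest on the double mutant arrays and IKKa-AA replicate 1, myeloid and epithelial genes stay near 0, and interferon gamma response genes are highest on the double mutant arrays.

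Among 17 measured epithelial partners of these lymphocytes, 4 fell in bCATca against WT and 0 rose, where 3.55% of all genes fell. They were Tnfrsf14, the receptor HVEM that CD160 binds (difference -1.85, SE 0.26, adjusted p = 0.006), H2-T3, the thymus leukaemia antigen bound by CD8 αα (difference -1.22, SE 0.22, adjusted p = 0.0148), Ccl25, a chemokine for gut homing (difference -0.80, SE 0.17, adjusted p = 0.0269), and Il15 (difference -2.03, SE 0.48, adjusted p = 0.0375). All 4 calls were lost under at least 1 alternative, with adjusted p of up to 0.0653 for Tnfrsf14, 0.104 for H2-T3, 0.15 for Ccl25 and 0.204 for Il15. Il15 read 7.49 and 7.67 (WT), 6.15 and 7.64 (IKKa-AA), 6.10 and 4.99 (bCATca) and 6.99 and 6.70 (double mutants). Both bCATca arrays were lowest for Il15, and its part in the readings of the lymphocyte genes was not tested. In double mutants against WT Tnfrsf14 alone of the 17 passed (difference -1.78, SE 0.26, adjusted p = 0.0244; adjusted p of up to 0.172 under the alternatives).

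Interferon gamma is a product of T and natural killer cells. Of 23 measured genes of the response to it, 4 rose in double mutants against WT (0.984% of all genes rose) and 0 fell, with a median of 1.63. Among them were Gbp3 (difference 2.20, SE 0.22, adjusted p = 0.0138) and Gbp6 (difference 2.68, SE 0.36, adjusted p = 0.0198), which encode guanylate-binding proteins, and Iigp1, an immunity GTPase near background in WT (difference 5.001, SE 0.90, adjusted p = 0.0421). Each of these 3 calls was lost under at least 1 alternative, with adjusted p of up to 0.117 for Gbp3, 0.172 for Gbp6 and 0.246 for Iigp1. Ifng itself was near background, at 2.56 to 3.67 over all arrays.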

How the data were processed

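Affymetrix arrays of 8 samples were used, 2 in each of 4 groups set from the sample titles. The deposited values are linear intensities per probe set, with array medians of 50.9 to 53.8. Per the submitters' processing notes, the authors used RMA and affy, whose versions are not given in the sources used here. The log2 of each value was taken. Of 22690 probe sets, 20380 had 1 gene symbol, 691 several, 1555 none, and 64 were controls. The brightest probe set stood for a gene, leaving 12393 genes. Group means were fitted with limma 3.58.1 in R 4.3.3 (lmFit, eBayes, 4 residual degrees of freedom), with Benjamini-Hochberg adjustment over all genes in each of 7 comparisons. The fit was also run on simulated data in which a gene's spread was the same in all groups. That run cannot show how the fit handles the gap between the IKKa-AA arrays. Tables and figures used Python 3.11.15, pandas 2.3.3, numpy 2.4.6 and matplotlib 3.10.9.

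Alternatives were quantile normalisation, the mean of probe sets, a filter on dim genes, a floor of 4, trend and robust eBayes, a replicate block and leaving out each array. Leaving out the IKKa-AA group was added after seeing the data. The labels do not say that replicates came from separate animals, so the p-values reflect variation between arrays that may be technical. The number of arrays limits the precision. The members and lists were chosen with earlier results of these data known. Any member could be named, and of each other list up to 3 genes past the test with the smallest p, or the 1 with the smallest p. Il15, Cxcr6, Jchain, Lyz1, Ifng, Epcam, Vil1, Cd68, Adgre1, Xist, Eif2s3y and the receptor segments were named outside that rule after their values were seen. Expression of IKKα itself was not analysed here, and 0 of 12 listed receptor chain genes were measured.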

Additional observations from a re-analysis of the deposited data

How the results depend on the processing

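Medians over the 31 genes kept their sign in all 7 comparisons under the alternatives that kept every array. Over the 15 genes above the median level they were -2.31 in double mutants against bCATca, -2.28 against IKKa-AA, -3.26 against WT, -1.36 for the interaction and -1.73 for the average AA effect. The 10 calls in double mutants against WT (0.46% of all genes fell) became 6 with the mean of probe sets (0.29%) and 0 with a floor of 4 (0.0888%). They became 0 with trend and robust eBayes (0.331%) and 18 without the IKKa-AA group (2.64%). Quantile normalisation gave 2 calls in bCATca against WT (4.18% of all genes were lower) and 1 in double mutants against bCATca (0.799%). Leaving out the IKKa-AA group gave 11 (6.07%) and 15 (2.19%). With the replicate block 1 call (Ptprc) was left in double mutants against WT, and the share of all genes there is not given. The labels do not say whether replicate numbers pair the samples. Deviations of same-numbered arrays correlated at -0.448 (IKKa-AA with bCATca) to 0.15 across genes, which cannot decide whether arrays shared a batch.

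Leaving out each array gave 0 to 18 calls in double mutants against WT, 0 to 15 against bCATca and 0 to 17 against IKKa-AA, 0 to 11 in bCATca against WT, 0 to 14 in IKKa-AA against WT, 0 to 7 for the interaction and 0 to 16 for the average AA effect. Medians ran, in that order, from -1.80 to -1.12, -0.99 to -0.68, -1.75 to -0.32, -0.98 to -0.43, -1.33 to -0.048, -0.98 to 0.087 and -1.08 to -0.48. The difference in IKKa-AA against WT ran from -2.49 to 0.061 for Cd8a and -1.77 to 0.017 for Gzma, above 0 without IKKa-AA replicate 1. The cause of these changes was not tested. Signal close to background limits the reading of members near it.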

Other observations

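Variable segments of T cell receptor chains, none of them in the lists, were looked up after the content of the arrays was seen. Trgv4, a γ chain segment, read 9.20 and 8.59 on the WT arrays, 6.90 and 9.004 on those of IKKa-AA, 7.91 and 7.40 on those of bCATca and 4.85 and 4.84 on the double mutant arrays. It fell in double mutants against WT (difference -4.05, SE 0.57, adjusted p = 0.0203 by limma), and both double mutant arrays lay below all others. Trgv1 (difference -3.48, SE 0.65, adjusted p = 0.0461) and the β chain segment Trbv1 (difference -2.95, SE 0.49, adjusted p = 0.0315) fell as well. Under the alternatives the adjusted p reached 0.186 for Trgv4, 0.267 for Trgv1 and 0.208 for Trbv1. Trav9d-3, an α chain segment, read 8.33 and 7.73 in WT and 6.15 and 5.71 in double mutants and missed the test (difference -2.10, SE 0.51, adjusted p = 0.0916; adjusted p = 0.00479 without the IKKa-AA group). The α chain segment Trav12n-1, near background on all arrays (difference -0.48, SE 0.15, adjusted p = 0.1585), did not pass against WT. Neither did the β chain segment Trbv13-2 (difference -0.56, SE 0.16, adjusted p = 0.1325), which differed by 0.20 in double mutants against bCATca. Segments of a chain are alike in sequence, so a probe set may read several of them.

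Id2, a transcriptional regulator that lymphocytes and epithelial cells both express, fell in double mutants against bCATca (difference -1.01, SE 0.18, adjusted p = 0.0408 by limma; up to 0.234 under the alternatives), and no other of the 20 measured transcription factors passed there.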
